A study of Mus musculus with 3 samples.

Results

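The genes described here are 10 markers of microglia, the resident macrophages of the retina and brain, including the 3 chains of complement C1q. They were taken by name, through the RefSeq accession that the scanner files give for each probe, and they are 10 of the 21366 genes that could be named on the array. They were read by 14 probes, 3 each for Cx3cr1 and Csf1r and 1 for each of the others, and all 14 probes were well above background on all 3 arrays. The RNA came from whole mouse retinas at postnatal day 12, hybridised to 1-colour Agilent arrays with 1 array labelled Otx2 KI, 1 labelled Crx KO and 1 wild-type (WT). KI is the usual short form for knock-in and KO for knockout. The labels give the tissue, the genotype and the age, and state neither the altered part of either allele, nor its zygosity, nor the number of animals behind an array. Otx2 and Crx are related homeodomain transcription factors of photoreceptors. Because each genotype has a single array, differences carry no replicate check and no p-value, and genes are described by size, at 1.5-fold or more. A level is given as scaled signal, the linear processed signal after each array was brought to a common 75th percentile. The ± beside a log2 difference, called measurement error below, comes from the scanner software's own error model for the probe. It was 0.20 for the median gene and near that for each member, and it was not derived from repeat spots. Probes printed at 10 spots had a smaller spread within each array, a median SD between spots of 0.06 on the log2 scale. Neither covers the spread between mice.

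Microglia enter the retina before birth, survive on signals through the receptor CSF1R, and sense neurons through the fractalkine receptor CX3CR1 and the nucleotide receptor P2RY12. TREM2 is a surface receptor for lipids and debris that signals through the adaptor TYROBP. C1q, built from A, B and C chains, starts the classical complement cascade, and in the developing visual system it tags synapses that microglia then remove. CD68 is a lysosomal membrane protein of phagocytes, and AIF1 (also called IBA1) is an actin-binding protein by which microglia are commonly stained.

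The promoters of 4 members are shown, chosen by their values in the data. C1qb and C1qc are neighbours that differed by similar amounts, Trem2 was furthest below WT in Crx KO, and P2ry12 went the other way. The P2ry12 differences from WT were smaller than its measurement error. The promoters are RefSeq sequences of GRCm38.p6, 5′ to 3′ along the gene's strand, with 250 bases before and 50 after the annotated start. Capitals mark GAGGAA or its reverse complement TTCCTC, a form of the letters bound by PU.1, a macrophage transcription factor encoded by Spi1. Other forms of the PU.1 site were not searched, so a window without capitals may still hold one.
C1qb, chr4:136886151-136886450, minus strand: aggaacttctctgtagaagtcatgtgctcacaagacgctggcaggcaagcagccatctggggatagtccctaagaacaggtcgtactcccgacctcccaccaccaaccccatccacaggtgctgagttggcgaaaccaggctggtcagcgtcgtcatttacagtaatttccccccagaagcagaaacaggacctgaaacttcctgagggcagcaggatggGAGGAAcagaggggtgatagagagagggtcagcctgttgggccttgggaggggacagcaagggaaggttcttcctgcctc
C1qc, chr4:136892865-136893164, minus strand: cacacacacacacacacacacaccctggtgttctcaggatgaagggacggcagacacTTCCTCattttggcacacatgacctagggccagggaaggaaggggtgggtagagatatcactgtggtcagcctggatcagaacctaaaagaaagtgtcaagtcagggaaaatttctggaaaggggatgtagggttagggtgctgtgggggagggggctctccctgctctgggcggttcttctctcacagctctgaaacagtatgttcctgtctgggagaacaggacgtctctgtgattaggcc
Trem2, chr17:48346151-48346450, plus strand: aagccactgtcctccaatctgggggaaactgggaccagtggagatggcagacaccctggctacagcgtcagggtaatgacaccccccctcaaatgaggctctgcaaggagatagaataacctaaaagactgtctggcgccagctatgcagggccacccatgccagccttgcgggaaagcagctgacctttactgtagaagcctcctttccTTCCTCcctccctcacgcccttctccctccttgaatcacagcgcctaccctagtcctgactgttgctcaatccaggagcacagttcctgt
P2ry12, chr3:59262936-59263235, minus strand: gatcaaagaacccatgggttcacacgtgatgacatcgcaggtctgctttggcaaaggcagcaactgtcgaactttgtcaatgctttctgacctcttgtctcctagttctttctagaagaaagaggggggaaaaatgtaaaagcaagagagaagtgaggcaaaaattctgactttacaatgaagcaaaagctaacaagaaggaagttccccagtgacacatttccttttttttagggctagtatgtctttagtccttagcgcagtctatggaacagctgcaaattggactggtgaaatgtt

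The RefSeq promoter table held 7 of the 10 members. GAGGAA, searched on both strands, was present in 5 of these 7 windows (Aif1, C1qb, C1qc, Cd68 and Trem2) and in 28.3% of all 32851 promoter windows of the same length. In C1qb it began 30 bases before the start, in C1qc 193 and in Trem2 40. GAGGAA was absent from the Cx3cr1 and P2ry12 windows, and these genes differed from WT in opposite directions. Whether the letters relate to the signals was not tested. The AP-1 letters TGANTCA, which read the same on both strands, were in the Cd68 and Trem2 windows, against 7.81% of all. No AP-1 match overlapped a GAGGAA match, and the counts describe letters, not binding.

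The series as a whole was read for the checks that touch these genes. The 3 arrays shared 1 slide and 1 scan, so an array's place on the slide and its genotype cannot be told apart. Between 63.5% and 67.1% of the 59305 non-control spots per array were well above background, and 0 were saturated. The Crx probe read 1062 in Otx2 KI, 7177 in Crx KO and 9790 in WT, and Otx2 read 63860, 62981 and 40886 in the same order. Whether the Crx probe falls inside the altered part of the gene is not stated, and the Crx KO label could not be checked from it. All 10 listed rod genes were below WT on both mutant arrays, with median log2 differences of -1.85 in Otx2 KI and -1.51 in Crx KO. The 28 inner retina neuron genes had medians of 0.01 and -0.02.

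Most of the microglia genes were brightest in Otx2 KI, intermediate in WT and dimmest in Crx KO. Relative to WT, 9 of 10 were above 0 in Otx2 KI, with a median log2 difference of 0.20 and a range of -0.13 to 0.28. No member reached 1.5-fold there, and 3.66% of all 15809 measured genes were that much higher and 6.35% that much lower. In Crx KO over WT, 9 of 10 were below 0, with a median of -0.34 and a range of -0.61 to 0.14. The 1 member lower by 1.5-fold or more was Trem2, where 8.24% of 16048 measured genes were that much lower and 5.02% that much higher. In Otx2 KI over Crx KO the median was 0.53 and 3 of 10 members, Tyrobp, Trem2 and C1qc, were higher by 1.5-fold or more, where 2.44% of 15805 genes were and 2.31% were lower. At 2-fold the count of members was 0 in each comparison. The shares of all genes that were 2-fold or more higher and lower were 1.35% and 2.53% in Otx2 KI over WT, 1.95% and 3.43% in Crx KO over WT, and 0.677% and 0.645% in Otx2 KI over Crx KO. The medians over all measured genes were 0.03, -0.01 and 0.04 in the same order of comparisons. Directions alone are common: 55.3% of all genes were above WT in Otx2 KI, 51.5% were below WT in Crx KO, and 59.7% had a positive difference for Otx2 KI over Crx KO. The mutant comparisons share the single WT array. In whole retina, fewer microglia and less RNA per microglial cell cannot be told apart.

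**Figure D1:**
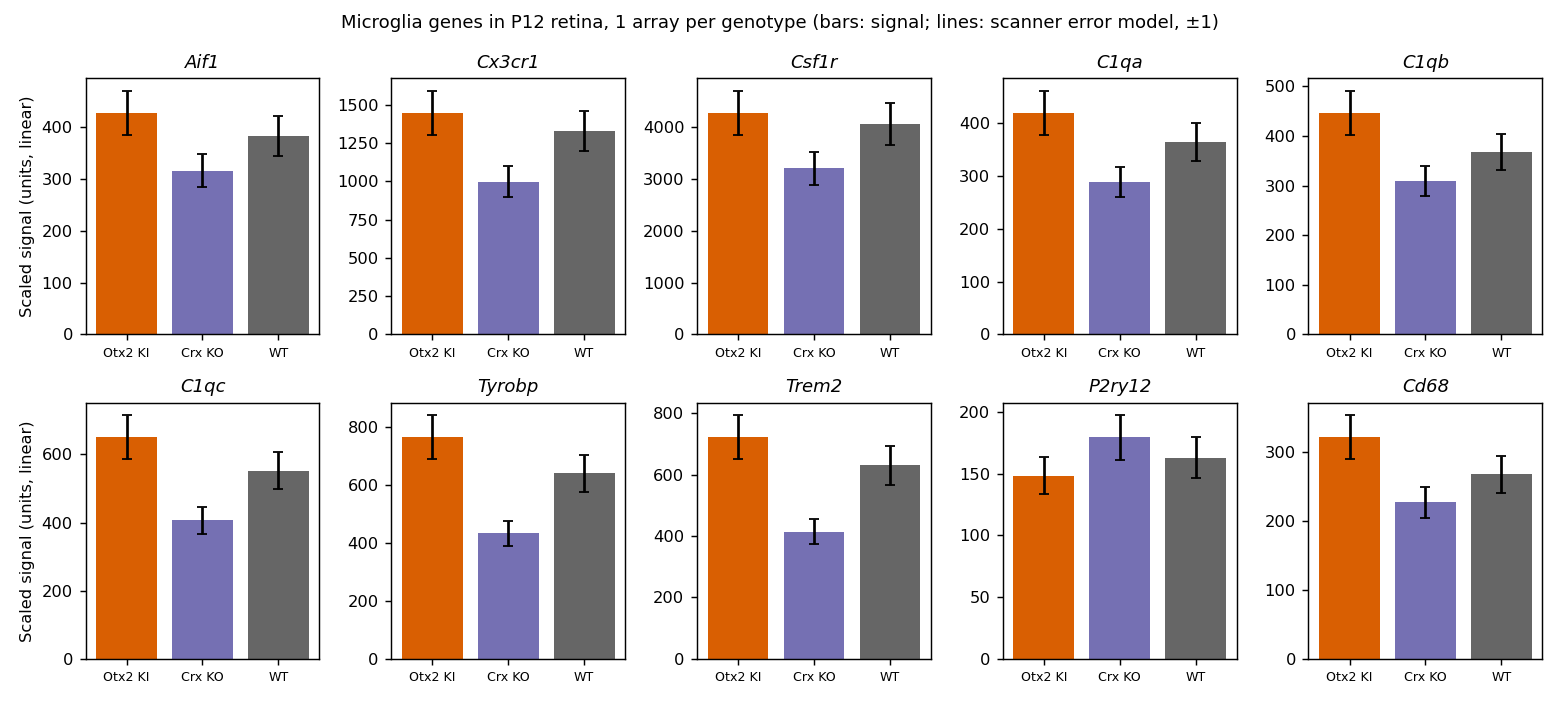
Scaled signal (linear units) of the brightest probe of each of the 10 microglia genes on the Otx2 KI, Crx KO and WT arrays, with 1 array per genotype; lines show the scanner error model of that signal, ±1. In 9 panels the Crx KO bar is the lowest and the Otx2 KI bar the highest, and in the P2ry12 panel the order is turned, with 148.5 in Otx2 KI and 179.6 in Crx KO.

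The TREM2 and TYROBP pair showed the widest spacing. Tyrobp, the signalling adaptor, read 766 in Otx2 KI, 434 in Crx KO and 640.5 in WT. It was 1.20-fold higher in Otx2 KI than in WT (log2 0.26 ± 0.20), 1.48-fold lower in Crx KO than in WT (log2 -0.56 ± 0.20), and 1.76-fold higher in Otx2 KI when set against Crx KO (log2 0.82 ± 0.20). Trem2, its receptor partner, read 723 in Otx2 KI, 414 in Crx KO and 631 in WT. Its log2 differences were 0.19 ± 0.20 for Otx2 KI over WT and -0.61 ± 0.20 for Crx KO over WT, which is 1.52-fold lower. With normexp background correction the Crx KO value was -0.44, and in the authors' deposited table it was -0.55, so that it no longer reached 1.5-fold. Between the mutant arrays Trem2 was 1.74-fold higher in Otx2 KI (log2 0.80 ± 0.20). For both genes the Crx KO array stood apart below the other arrays, while Otx2 KI and WT differed by about the measurement error. Between the mutant arrays, 98.9% of all measured genes had a lower log2 difference than Tyrobp and 98.8% a lower one than Trem2.

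The 3 C1q chains are encoded side by side on chromosome 4, with 0 other genes of the RefSeq table between them, and they gave the same order of arrays. C1qa read 419.8 in Otx2 KI, 289 in Crx KO and 364 in WT, with log2 differences from WT of 0.20 ± 0.20 and -0.34 ± 0.20. C1qb read 447 in Otx2 KI, 309 in Crx KO and 367 in WT, with 0.28 ± 0.20 and -0.25 ± 0.20. C1qc read 651 in Otx2 KI, 406 in Crx KO and 553 in WT, with 0.24 ± 0.20 and -0.44 ± 0.20. The SD of the log2 difference between the 3 chains was 0.04 in Otx2 KI over WT and 0.10 in Crx KO over WT, less than the measurement error of each. Set directly against Crx KO, Otx2 KI was higher by 1.45-fold for C1qa, 1.45-fold for C1qb and 1.60-fold for C1qc.

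C1qc was printed at 10 spots on each array, which shows how repeatable 1 hybridisation is. Its spots ran over 623 to 685 in Otx2 KI, with a median of 656. They ran over 385 to 436 in Crx KO, with a median of 403, and over 535 to 575 in WT, with a median of 548. The spot ranges did not overlap between any pair of arrays, and the spread between spots was an SD of 0.04 to 0.05 on the log2 scale. Non-overlap of this kind was not rare among probes with 10 spots: 19.8% of 303 had all spots higher in Otx2 KI than in WT, 18% of 306 had all spots lower in Crx KO than in WT, and 14.9% of 302 had every Otx2 KI spot above every Crx KO spot. Spots share 1 RNA preparation, so their spread covers the reading of the array and not the mice.

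**Figure D2:**
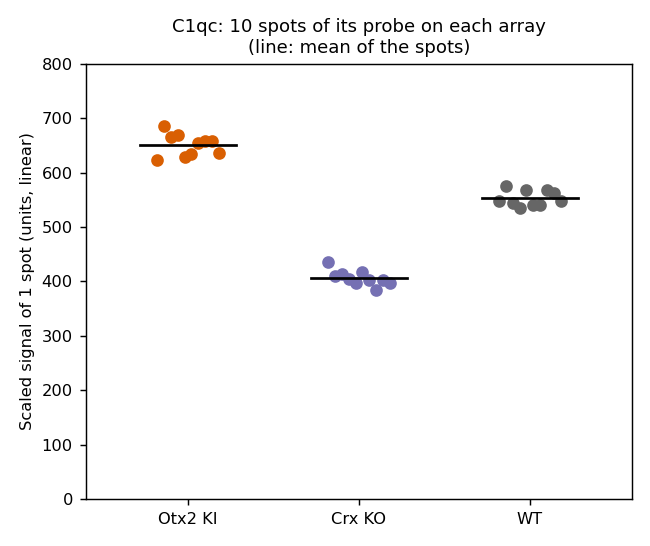
Scaled signal (linear units) of each of the 10 spots of the C1qc probe on the Otx2 KI, Crx KO and WT arrays; the line is the mean of the spots. The lowest Otx2 KI spot, at 623, lies above the highest WT spot, at 575, and the highest Crx KO spot, at 436, lies below the lowest WT spot, at 535.

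The receptors that keep microglia alive and in contact with neurons differed less evenly. Csf1r, the CSF1 receptor, read 4268 in Otx2 KI, 3199 in Crx KO and 4049 in WT on its brightest probe, a log2 difference of 0.08 ± 0.20 for Otx2 KI over WT and -0.34 ± 0.20 for Crx KO over WT. Its dimmest probe gave -0.04 and -0.41, and its middle probe gave 0.23 and 0.14, so the probes disagreed on the direction in both comparisons. Cx3cr1, the fractalkine receptor, read 1447 in Otx2 KI, 997 in Crx KO and 1329 in WT. All 3 Cx3cr1 probes were above WT in Otx2 KI, at 0.12, 0.13 and 0.46, and below WT in Crx KO, at -0.41, -0.53 and -0.14. For Otx2 KI over Crx KO they gave 0.54, 0.66 and 0.60, which is 1.45-fold to 1.57-fold.

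P2ry12, the ADP receptor that marks resting microglia, was the exception among the members. It read 148.5 in Otx2 KI, 179.6 in Crx KO and 163 in WT. Its log2 differences were -0.13 ± 0.21 for Otx2 KI over WT, 0.14 ± 0.21 for Crx KO over WT and -0.27 ± 0.21 for Otx2 KI over Crx KO, on 1 probe. The first 2 of these are smaller than the measurement error of that probe. Aif1 read 427 in Otx2 KI, 316 in Crx KO and 383 in WT (log2 differences from WT of 0.16 ± 0.20 and -0.28 ± 0.20). Cd68 read 321 in Otx2 KI, 227 in Crx KO and 267 in WT (0.26 ± 0.20 and -0.24 ± 0.20). Both followed the order seen for C1q, and Otx2 KI was 1.35-fold and 1.42-fold higher than Crx KO for Aif1 and Cd68 in turn.

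**Figure D3:**
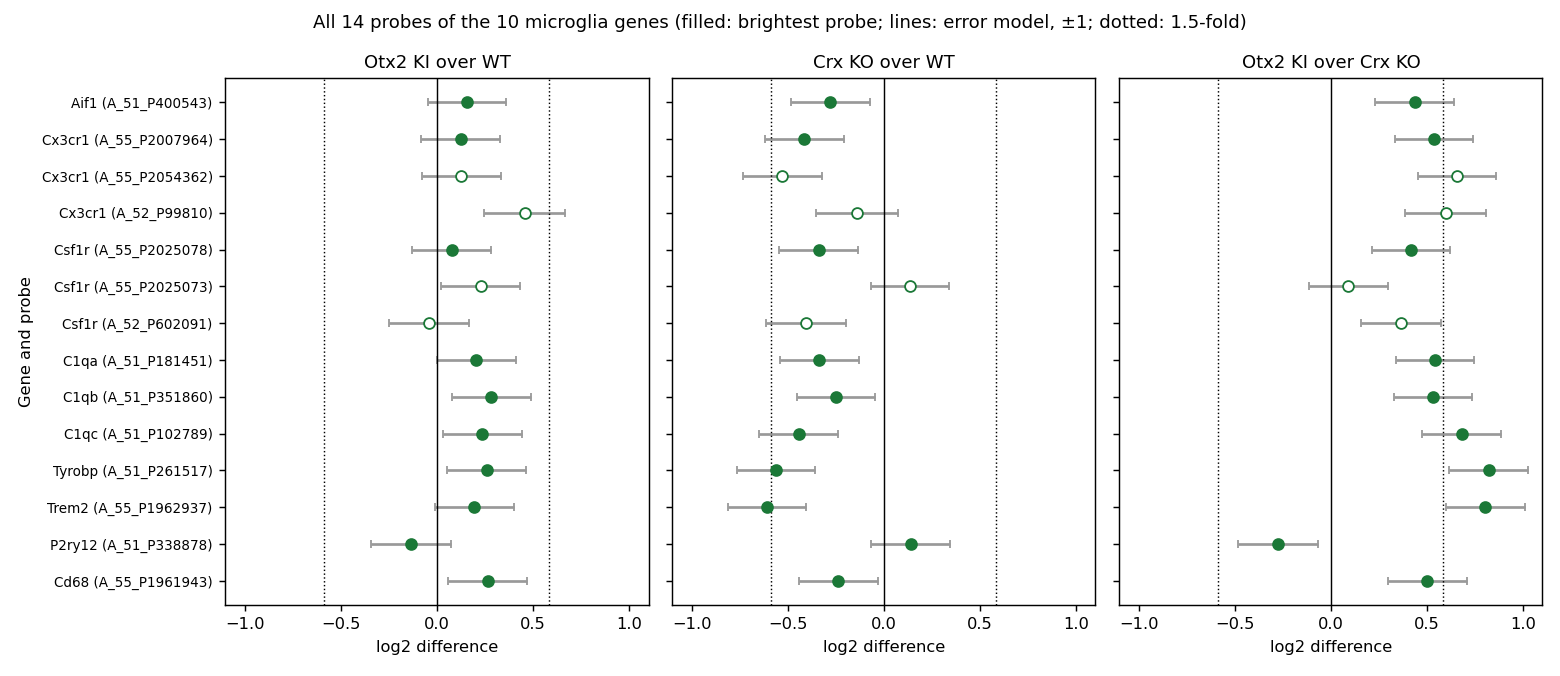
Log2 difference of each of the 14 probes of the 10 genes in Otx2 KI over WT, Crx KO over WT and Otx2 KI over Crx KO; filled points are the brightest probe of a gene, lines are the scanner error model, ±1, and dotted lines mark 1.5-fold. In Otx2 KI over Crx KO, 13 probes lie above 0 and the P2ry12 probe lies at -0.27.

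Other microglia identity genes had the same sign of median, with a wide spread. Of 16 such genes, all measured, Crx KO over WT gave a median of -0.24, with 4 lower by 1.5-fold or more, 1 higher and 11 neither. Fcrls, an Fc receptor-like gene of mouse microglia, read 244 in Otx2 KI, 110.0 in Crx KO and 227 in WT, 2.06-fold lower in Crx KO than in WT. Ly86, which encodes the MD-1 partner of a Toll-like receptor homologue, read 814 in Otx2 KI, 425 in Crx KO and 788 in WT, 1.85-fold lower. Adgre1, the F4/80 antigen, was 1.51-fold lower in Crx KO and Gpr34, a lysophospholipid receptor named after its value was seen, 1.51-fold lower, with log2 values of -0.30 and -0.38 under normexp. Olfml3 was the higher gene, at log2 1.09 in Crx KO, but its other probe gave -1.40. Tmem119, a microglial membrane protein, and Itgam, the CD11b integrin, were both named after their values were seen. In Crx KO they were above WT within 1.5-fold, at 0.31 and, on the brightest Itgam probe, 0.55. The 3 Itgam probes disagreed on the direction, and the lowest was at -0.24. Probe sequences were not used here, so the specificity of bright probes such as those of Itgam and Siglech was not checked. Itgam read 23536 in Otx2 KI, 24619 in Crx KO and 16837 in WT. For Otx2 KI over WT the median was 0.07 and Olfml3 was the 1 gene past 1.5-fold (0.96, with -0.21 on its other probe). Set against Crx KO, Otx2 KI had a median of 0.32 and 4 were higher: Fcrls (2.22-fold), Adgre1 (1.93-fold), Ly86 (1.91-fold) and Laptm5 (1.52-fold, named after its value was seen). Under normexp Adgre1 and Laptm5 were within 1.5-fold, at log2 0.49 and 0.29.

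The ligands that act on microglia were within 1.5-fold of WT on their brightest probes. Csf1 and Il34, the ligands of CSF1R, had log2 differences of 0.16 and -0.10 in Otx2 KI over WT, and 0.05 and 0.27 in Crx KO over WT, with other Csf1 probes reaching 0.41 and -0.35. Cx3cl1, the neuronal ligand of CX3CR1, read 5473 in Otx2 KI, 6020 in Crx KO and 5329 in WT. Of the 8 genes in this list, 0 were past 1.5-fold in Otx2 KI and 1, the cytokine receptor subunit Csf2ra, was 1.52-fold higher in Crx KO (log2 0.56 when centred on inner retina neurons).

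Downstream of TREM2 and TYROBP, the kinase gene Syk read 74.3 in Otx2 KI, 47.3 in Crx KO and 73.7 in WT, 1.56-fold lower in Crx KO than in WT (log2 -0.36 with normexp). Inpp5d, an inositol phosphatase that restrains this pathway, read 179 in Otx2 KI, 143 in Crx KO and 256 in WT, 1.79-fold lower in Crx KO. Of 10 genes in this list, 7 were measured in Crx KO over WT, with 2 lower, 0 higher and a median of -0.31. Lyn, a kinase of the same pathway named after its value was seen, was not well above background in Crx KO, at least 2.12-fold lower than in WT. For Otx2 KI over WT, 8 were measured, 0 were past 1.5-fold and the median was 0.01. Fcer1g, another adaptor of the same kind as TYROBP, read 395 in Otx2 KI, 284 in Crx KO and 404 in WT.

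Spi1, which encodes PU.1, was not well above background on any of the 3 arrays. Among the other myeloid transcription factors, Irf5 differed most. It read 650.2 in Otx2 KI, 760.4 in Crx KO and 77.8 in WT, which is 8.36-fold and 9.78-fold higher (log2 3.06 and 3.29, or 2.26 and 2.47 with normexp), on 1 probe. Mef2c went the other way, at -0.67 in Otx2 KI and -0.82 in Crx KO, both within 1.5-fold under normexp at -0.23 and -0.29.

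C1q was set beside the rest of the complement cascade. Of 10 cascade genes, 7 were measured, and 0 were past 1.5-fold in any of the 3 comparisons. C3, the central component, had log2 differences of -0.17 in Otx2 KI over WT and -0.19 in Crx KO over WT. C4b gave -0.41 and -0.04, and C1s1, a protease that pairs with C1q, gave -0.13 and 0.32. The regulators differed more. Serping1, which encodes the C1 inhibitor that blocks the proteases bound to C1q, read 929.6 in Otx2 KI, 904 in Crx KO and 195.9 in WT. It was 4.75-fold higher in Otx2 KI and 4.62-fold higher in Crx KO, and its 2 probes spanned log2 2.25 to 2.32 and 2.21 to 2.32. Cfi, the factor I protease that cleaves C3b, read 97.4 in Otx2 KI, 56.5 in Crx KO and 142.7 in WT, 2.53-fold lower in Crx KO (log2 -1.34, or -0.71 with normexp). Of 7 measured regulators, 2 were higher and 0 lower in Otx2 KI, and 1 was higher and 2 lower in Crx KO. The other higher gene in Otx2 KI, Cr1l, a membrane regulator, was at log2 0.62, and within 1.5-fold at 0.57 with normexp.

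The measured genes of activated phagocytes had medians near 0. The median was 0.08 in Otx2 KI over WT (15 of 17 genes on the array measured, 1 higher and 1 lower by 1.5-fold or more) and -0.05 in Crx KO over WT (12 measured, 0 higher and 2 lower). Ccl6, a macrophage chemokine, read 118.7 in Otx2 KI, 46.7 in Crx KO and 79.9 in WT, so that Otx2 KI was 2.54-fold above Crx KO (log2 1.35, or 0.75 with normexp). Gpnmb, a glycoprotein of both phagocytes and pigment cells, read 80.3 in Otx2 KI, 29.0 in Crx KO and 175 in WT. It was 2.18-fold lower in Otx2 KI and 6.03-fold lower in Crx KO (log2 -1.43 with normexp). Cst7, Ccl3 and Itgax, named after their values were seen, were not well above background in Crx KO. They were at least 2.90-fold, 2.48-fold and 1.75-fold lower there than in WT. These bounds set WT against the higher of the gene's own Crx KO signal and the lowest signal called well above background there. The Crx KO median and counts of this list leave these genes out. Of 14 cytokine and inflammasome genes, 6 were not well above background on any array, among them Tnf, Il1b and Il6. Of the 6 measured in Otx2 KI over WT 0 were past 1.5-fold, and of the 7 measured in Crx KO over WT 1 was higher and 1 lower. Nlrp3, the inflammasome sensor, was 1.61-fold higher in Crx KO (log2 0.21 with normexp). Cxcl10, an interferon-induced chemokine named after its value was seen, was 4.08-fold lower in Crx KO (log2 -0.52 with normexp) and at least 4.02-fold lower in Otx2 KI, where it was not well above background.

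Markers of other cells that could carry these transcripts were read the same way. Of 8 perivascular macrophage genes 5 were measured, and the defining markers Mrc1 and Cd163 were not well above background on any array. Summed over those 5 genes, the scaled signal was 559 in Otx2 KI, 527 in Crx KO and 680.2 in WT, most of it from Lyve1 and Stab1. The median log2 difference had the other sign, at 0.21 in Otx2 KI over WT and 0.13 in Crx KO over WT. Pf4, a platelet and macrophage chemokine gene, was 1.93-fold higher in Otx2 KI (log2 0.25 with normexp). Cbr2, a carbonyl reductase, was 1.75-fold higher in Otx2 KI and 2.14-fold higher in Crx KO, at log2 0.12 and 0.21 with normexp. Of 13 genes of monocytes, neutrophils and lymphocytes on the array, 5 were not well above background on any array, among them Ccr2 and S100a8. Their sum over 5 measured genes was 3715 in Otx2 KI, 3496 in Crx KO and 4348 in WT. Most of it came from Cd4, which read 2994 in Otx2 KI, 2892 in Crx KO and 3615 in WT, and from Cd3e, and the specificity of these probes was not checked. S100a9, a neutrophil gene, read 55.7 in Otx2 KI, 11.0 in Crx KO and 50.2 in WT (log2 -2.19 in Crx KO over WT, or -0.65 with normexp).

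Blood and vessel genes also differed between the arrays. All 5 measured red blood cell genes of 6 on the array were below WT on both mutant arrays, with medians of -0.66 in Otx2 KI and -0.64 in Crx KO and sums of 33008 in Otx2 KI, 35409 in Crx KO and 52257 in WT. Of 10 vessel genes, 9 were below WT in Otx2 KI (median -0.24) and 9 in Crx KO (median -0.48), with sums of 15781, 14946 and 16330.5 in Otx2 KI, Crx KO and WT. In Otx2 KI the vessel genes were thus below WT while 9 microglia genes were above it, and in Crx KO both lists had medians below 0. The part of blood and vessel content in the microglia values was not tested.

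**Figure D4:**
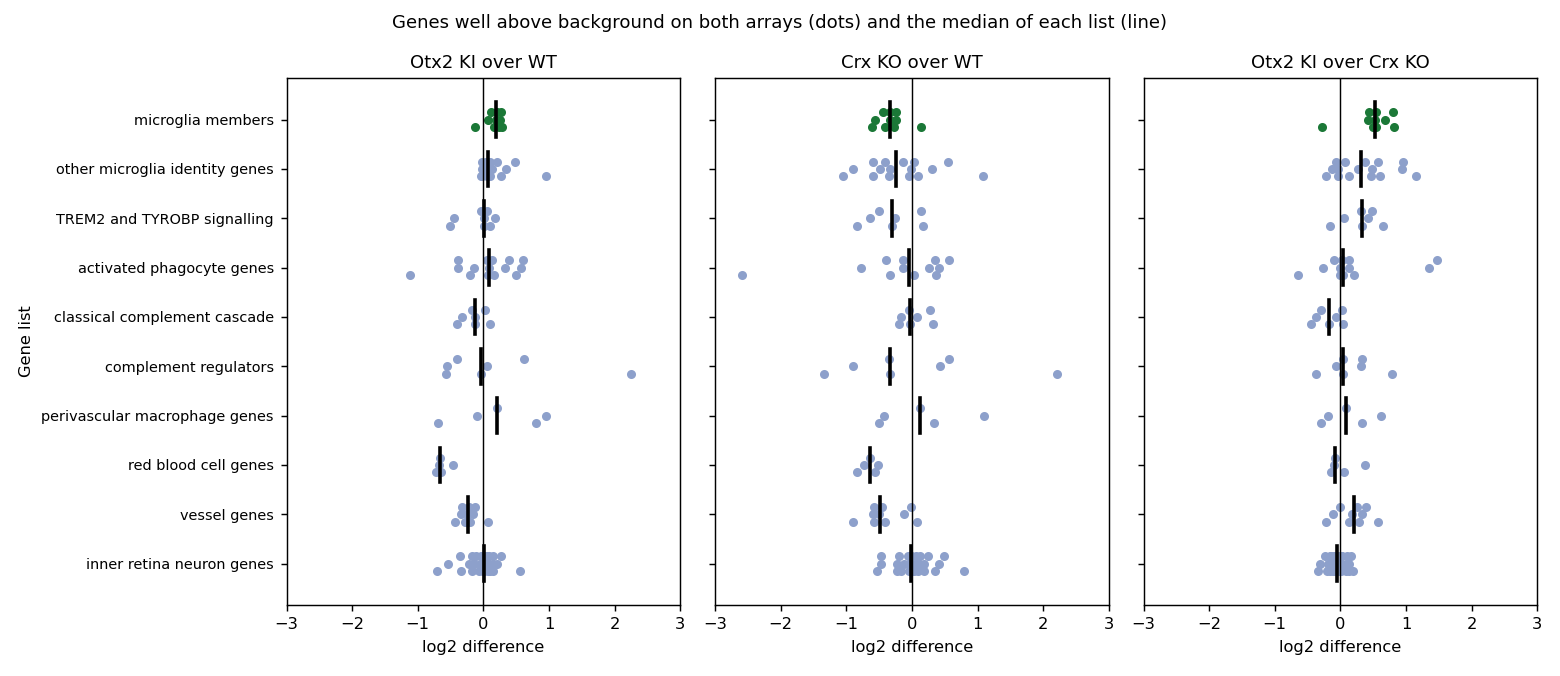
Log2 differences of the genes well above background on both arrays (dots) and the median of each list (line), for Otx2 KI over WT, Crx KO over WT and Otx2 KI over Crx KO. The microglia genes have medians of 0.20, -0.34 and 0.53 in the 3 panels, and the vessel genes -0.24, -0.48 and 0.21.

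Of the members, Tyrobp alone lies on chromosome 7, which also carries Crx in the RefSeq table, with 246 measured genes between them. Without Tyrobp the member medians were 0.19 for Otx2 KI over WT, -0.34 for Crx KO over WT and 0.53 for Otx2 KI over Crx KO. The 1275 genes measured on that chromosome had a median of -0.02 in Crx KO over WT.

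Genes whose pattern over the 3 arrays was most like the members were sought among 7869 genes brighter than the median gene, by the distance between their log2 differences from WT and the member medians. The 5 closest were Fhod3, Ech1, Pop1, Telo2 and Ctss, at distances of 0.05 to 0.07. Ctss, the lysosomal protease cathepsin S of macrophages, read 2288 in Otx2 KI, 1641 in Crx KO and 2096 in WT. The median distance of the members themselves was 0.12, and 26 non-member genes lay as close, of which 1 belonged to a listed gene group. Likeness over 3 arrays is a loose measure.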

How the data were processed

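The deposited scanner files hold intensity values per spot from Agilent Feature Extraction 12.0.3.1, per the file headers, which name the mouse build mm9. RNA was amplified and labelled with Cy3, per the labels' protocols. The processed signal, already background-subtracted by that software, was used. Control spots and spots flagged as outliers (126 to 136 per array) were left out, log2 values were reduced by each array's 75th percentile, put on the WT array's scale and averaged per probe. The authors' deposited value table, also intensity, held the processed signal times 1 constant per array (2.54 for Otx2 KI, 2.61 for Crx KO and 2.49 for WT, with column medians of 125.7, 135.8 and 129.8). That table is linear, with no centring, and the choice of constants is not stated in the labels.

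Accessions were matched, versions removed, to RefSeq gene records of the assembly GRCm38.p6, which named 28329 of 55675 probes (50.9%). A gene was read by its brightest probe and counted as measured when well above background on both arrays compared. With 1 array per genotype no test across samples was possible, the number of arrays limits the precision, and differences were described by size. The median error of a log2 difference over genes was 0.20. The steps were tested on simulated data. The members, the other 15 lists (179 genes) and the threshold were chosen with earlier results of these data known. Named genes were all members, up to 4 genes per list with the largest difference, and the ligands, Spi1 and complement genes chosen with them; not all are printed, and a few are not reported here. Files held no mean spot signal, so normexp (limma 3.58.1, R 4.3.3, offset 50) used the median signals. Alternatives were normexp, quantile normalization, centring on the array median or on inner retina neuron genes, the authors' deposited table, all probes averaged, no filter on dim probes, and a 2-fold threshold. Python 3.11.15, numpy 2.4.6 and pandas 2.3.3 were used.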

Additional observations from a re-analysis of the deposited data

Results flagged for a closer look

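The microglia genes lay on opposite sides of WT in the mutant arrays, with median log2 differences of 0.20 in Otx2 KI over WT and -0.34 in Crx KO over WT, and 0.53 in Otx2 KI over Crx KO. With 1 array per genotype this difference was not tested. The median in Otx2 KI over WT was about the size of the measurement error of 1 probe, which is not the error of a median over the members. P2ry12 was the member that went the other way, by less than its measurement error in each comparison with WT.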

How the results depend on the processing

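All 210 values of members under 7 alternatives (10 genes, 3 comparisons) moved by less than the measurement error of their probe. That limit, near 0.20, is wide beside the median SD of 0.06 between spots of probes printed at 10 spots. A value can stay within it and still cross 1.5-fold, as Trem2 did in Crx KO over WT with normexp. Part of the stability was also fixed by construction. All member probes were well above background, so dropping the filter on dim probes changed no member value. Averaging probes could change only Cx3cr1 and Csf1r. The centrings and the authors' deposited table shift all genes of a comparison by the same amount. For the other members, only normexp and quantile normalization could move genes relative to each other. In each of these settings 9 of 10 members were above 0 in Otx2 KI over WT and 9 of 10 were below 0 in Crx KO over WT. The member median ranged over 0.19 to 0.25 in Otx2 KI over WT, -0.38 to -0.28 in Crx KO over WT and 0.47 to 0.59 in Otx2 KI over Crx KO. Counts at 1.5-fold changed with the setting. Under the centrings and the authors' deposited table, the common shift carried members near the threshold across it. Normexp was run with an offset of 50 added to every signal, which by construction draws the log2 differences of dim probes towards 0. How much of the changes with normexp came from the offset was not tested. In Otx2 KI over Crx KO, 3 members were higher, against 6 when centred on the array median, 5 when centred on inner retina neuron genes and 0 at 2-fold. The share of all genes that much higher was 2.44%, against 3.18% and 3.09% under those centrings. In Crx KO over WT, 1 member was lower, against 2 when centred on inner retina neuron genes, 0 with normexp, 0 in the authors' deposited table and 0 at 2-fold. The share of all genes lower by 1.5-fold or more was 8.24%. It was 9.10% when centred on inner retina neuron genes, 5.19% with normexp and 7.09% in the authors' deposited table. Outside the members, Olfml3 in Crx KO over WT was at -0.15 with its probes averaged, since its probes disagree. Over all genes past 1.5-fold between the mutant arrays, 51.3% were higher in Otx2 KI, against 61.4% when centred on the array median, 60.4% when centred on inner retina neuron genes, 57.9% with quantile normalization, 41.8% in the authors' deposited table and 42.2% without the filter on dim probes. The share of genes past 1.5-fold in Crx KO over WT was 8.24% lower and 5.02% higher, against 5.19% and 3.17% with normexp and 10.3% and 7.88% without the filter on dim probes. No paired analysis was possible because each genotype has 1 array. The single array per genotype and the error of each probe both limit the precision. The alternative without Tyrobp, and those for genes outside the members, were chosen after seeing the data.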
